A study of Mus musculus with 8 samples.

Results

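The S100 genes described here are S100a1, S100a4, S100a6, S100a8, S100a9, S100a10, S100a11, S100a13, S100a16 and S100b, 10 of the 55679 genes in the table of FPKM values (fragments scaled by transcript length and by the size of the library). They were picked by gene name, with earlier results of these data known, and do not include every S100 gene of the table: S100a7a, which could also be tested, is given separately. The libraries came from left ventricles of male wild-type C57BL/6J mice: 4 control animals that received saline and 4 that received ANG II (angiotensin II) at 1500 ng/kg/min, each through a subcutaneous osmotic mini-pump for 7 days. Hearts were flushed with saline before collection, the age of the mice was not given, and RNA was enriched with oligo(dT). Nothing in the sources used here describes pooling of animals, and where libraries are not from separate animals the p-values measure only the spread between these libraries.

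The 8 libraries held 14455919 to 16564955 fragments in the control group and 15118887 to 15975803 in the ANG II group, as recovered from the steps between low values. The labelled tissue was matched by 8 cardiomyocyte genes, whose summed level ran from 47364 to 48303 FPKM in control and from 35506 to 38203 FPKM in ANG II libraries. Transcripts of the mitochondrial genome took 26.3 to 26.95 percent of fragments in control and 19.2 to 21.8 percent in ANG II libraries, and the median gene was higher by 0.15 (log2) after ANG II. Median-of-ratios scaling left a median shift of 0.02 and quantile normalization one of -0.04. In bulk tissue, more cells of a type and more RNA per cell cannot be told apart.

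S100 proteins are small EF-hand calcium sensors found in vertebrates. Most form dimers, open a hydrophobic face when calcium binds and then dock onto target proteins such as annexins, myosins, the ryanodine receptor and the calcium pump of the sarcoplasmic reticulum. S100A1 is the form typical of heart muscle, S100A8 and S100A9 form the heterodimer calprotectin of neutrophils and monocytes, S100A10 is a light chain of annexin A2, and S100A4, S100A6 and S100A11 are known from fibroblasts and other dividing or moving cells. Outside the cell several of them are ligands of RAGE (Ager) or Toll-like receptor 4.

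In mouse, 9 of the 10 genes lie on chromosome 3 and S100b lies on chromosome 10. Sequences upstream of the RefSeq start sites (GRCm38.p6) are shown for S100a11, which had the largest difference on the log2(FPKM + 1) scale, for the calprotectin pair, and for the short segment between S100a1 and S100a13. In these sequences, written 5′ to 3′ on the strand of the gene, capitals mark matches to 4 motifs searched on both strands: the TATA box TATAAA, the AP-1 site TGANTCA, the GC box GGGCGG and the C/EBP site TTGCNNAA.
S100a11, chr3:93520246-93520495, plus strand: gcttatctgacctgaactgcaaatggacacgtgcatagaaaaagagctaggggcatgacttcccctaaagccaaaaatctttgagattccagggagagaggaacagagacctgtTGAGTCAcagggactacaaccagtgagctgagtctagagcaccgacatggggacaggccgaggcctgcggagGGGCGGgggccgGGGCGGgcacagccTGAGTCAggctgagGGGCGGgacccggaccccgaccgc
S100a8, chr3:90668821-90669070, plus strand: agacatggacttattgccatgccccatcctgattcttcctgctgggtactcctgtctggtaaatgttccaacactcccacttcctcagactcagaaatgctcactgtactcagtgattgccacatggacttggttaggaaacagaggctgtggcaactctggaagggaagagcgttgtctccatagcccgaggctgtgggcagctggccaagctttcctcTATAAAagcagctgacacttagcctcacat
S100a9, chr3:90695722-90695971, minus strand: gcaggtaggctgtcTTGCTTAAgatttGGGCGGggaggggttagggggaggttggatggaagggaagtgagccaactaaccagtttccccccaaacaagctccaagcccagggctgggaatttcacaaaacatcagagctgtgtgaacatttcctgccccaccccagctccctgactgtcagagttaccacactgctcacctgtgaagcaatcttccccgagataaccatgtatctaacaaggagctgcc
S100a1 to S100a13, chr3:90514331-90514434, plus strand: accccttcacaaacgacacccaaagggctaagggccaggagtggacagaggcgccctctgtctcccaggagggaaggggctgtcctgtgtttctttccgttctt

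The S100a11 window held 2 matches to the AP-1 site, whose first bases lay 136 and 38 bases before the start, and 3 GC boxes at 64, 52 and 24 bases. The S100a8 window held a TATA box at 30 bases, which lies within the gene as GENCODE places it (from 90668978). The S100a9 window held no TATA box, a GC box at 223 bases and a C/EBP match at 236 bases. Of 32851 RefSeq windows of 250 bases, 12.4 percent held TATAAA, 6.75 percent TGANTCA, 32.7 percent GGGCGG and 9.56 percent TTGCNNAA, so each motif also occurs upstream of many other genes. S100a1 and S100a13 are transcribed away from each other from RefSeq starts 105 bases apart, and the 104 bases between them (58.7 percent G and C) held none of the 4 motifs. By GENCODE the starts lie 43 bases apart, so part of this segment lies within the annotated S100a1 gene. A match to these letters is a description and not a binding site.

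ANG II was compared with control to find which S100 messenger RNAs differed in the left ventricle. After ANG II, S100a6, S100a8, S100a9, S100a10, S100a11 and S100a13 were higher, by 0.75 to 1.66 on the log2(FPKM + 1) scale, and no S100 gene was called lower. S100a1, by far the most abundant, was 1.22 times its control level, with a log2 difference of 0.28 that fell to 0.08 under median-of-ratios scaling. S100a1, S100a16 and S100b did not pass the full test. S100a4 was listed at 0 in 7 of 8 libraries and was not tested. A gene was called at an adjusted p under 0.05 and a log2 difference above 0.5 (limma with Benjamini-Hochberg adjustment over 19364 genes). By this rule 6 of the 9 tested S100 genes were called higher, against 14.0 percent of all tested genes, and none was called lower, against 1.41 percent. The same 6 genes were called higher under median-of-ratios scaling, where 9.07 percent of all tested genes were. A difference above 1 was found for 4 of the 9, against 3.96 percent of all tested genes. The groups did not overlap for 7 of the 9, with ANG II above, against 28.7 percent. The median difference of the 9 was 0.88, beside 0.15 over all tested genes.

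**Figure D1:**
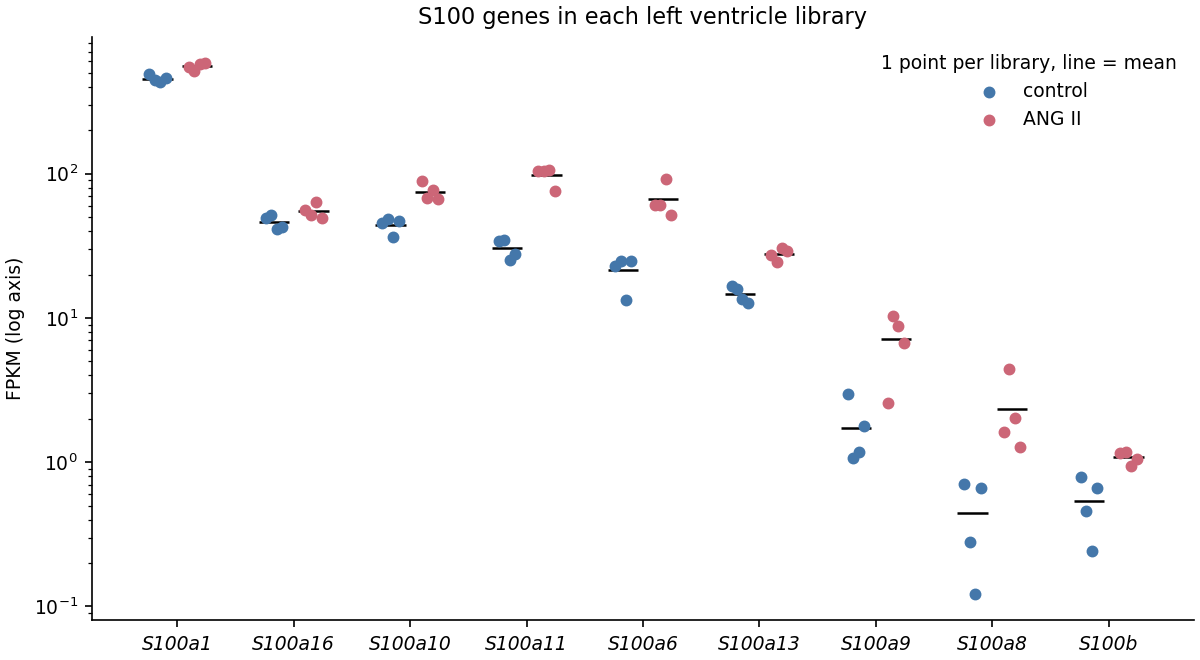
Level of 9 S100 genes in FPKM (vertical log axis) in 4 control and 4 ANG II libraries, 1 point per library, with a line at each group mean. S100a1 lies above all others at 435 to 583 FPKM, and the groups overlap for S100a16 and S100a9; S100a4, listed at 0 in 7 libraries, is not drawn.

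In control ventricles the order of mean levels (FPKM, per length) was S100a1, S100a16, S100a10, S100a11, S100a6, S100a13, S100a9, S100b and S100a8, with S100a4 left out of the order. The ranges of S100a16 and S100a10 overlapped, as did those of S100a6 and S100a13, and of S100b and S100a8. In ANG II ventricles the order was S100a1, S100a11, S100a10, S100a6, S100a16, S100a13, S100a9, S100a8 and S100b. Here the ranges overlapped between S100a11 and S100a10, S100a11 and S100a6, S100a10 and S100a6, S100a6 and S100a16, and S100a9 and S100a8. S100a11 thus moved, by its mean, up past S100a10 and S100a16, and S100a16 moved below S100a10, S100a11 and S100a6.

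S100a11 lies at chr3:93520488-93526287 (GRCm38), and its protein binds annexin A1 in a calcium-dependent way. Its level was 34.1, 34.8, 25.05 and 27.6 FPKM in the control libraries 1 to 4 and 105, 105, 106 and 76.1 FPKM in the ANG II libraries 1 to 4. Every ANG II library lay above every control library, with ANG II 4 below the other three. The mean was 30.4 ± 4.83 FPKM (SD, n = 4) in control and 98.1 ± 14.7 FPKM (SD, n = 4) after ANG II, a ratio of 3.22. The log2 difference was 1.66 (SE 0.133), with an adjusted p of 2.6e-05 by limma. This difference stood at percentile 99.1 of all tested genes. Of the 50-base words in S100a11 transcripts, 41.1 percent also occur in processed pseudogenes, so its count could be split. The pseudogene Gm12854 was listed at 0.220 to 3.78 FPKM and Gm7665 at 0 to 0.845 FPKM over the 8 libraries, low beside S100a11.

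S100a6, at chr3:90612882-90624181, encodes calcyclin, a protein of proliferating fibroblasts and epithelial cells. The control libraries held 22.8, 24.96, 13.3 and 24.8 FPKM and the ANG II libraries 61.1, 60.4, 92.1 and 52.0 FPKM. The groups did not overlap. Control 3 was the lowest control and ANG II 3 the highest of all libraries. The log2 difference was 1.59 (SE 0.216, adjusted p 4.5e-04 by limma), and the means were 21.5 ± 5.52 and 66.4 ± 17.6 FPKM (SD, n = 4 each).

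S100a10, at chr3:93555080-93564643, encodes p11, which joins annexin A2 in a heterotetramer at the plasma membrane. Its values were 45.4, 48.6, 36.4 and 47.0 FPKM in control and 89.3, 67.8, 76.6 and 66.7 FPKM in ANG II libraries. The groups were separate, and the mean rose from 44.3 ± 5.47 to 75.1 ± 10.4 FPKM (SD, n = 4 each), a log2 difference of 0.75 (SE 0.112, adjusted p 7.8e-04 by limma). With median-of-ratios scaling the difference was 0.55, still above the limit of 0.5.

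S100a13, at chr3:90514435-90524581, takes part in the release of leaderless proteins such as FGF1 and interleukin-1 alpha. It measured 16.7, 15.9, 13.5 and 12.7 FPKM in control and 27.3, 24.4, 30.7 and 29.2 FPKM in ANG II libraries, with no overlap. The log2 difference was 0.88 (SE 0.09998, adjusted p 1.7e-04 by limma), from a mean of 14.7 ± 1.91 to one of 27.9 ± 2.73 FPKM (SD, n = 4 each).

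Genes of fibroblasts and macrophages, cells that also carry S100a6, S100a10 and S100a11, differed between the same groups. Over all tested genes 14.0 percent were called higher as deposited, 9.07 percent under median-of-ratios scaling and 7.3 percent after quantile normalization. Of 9 fibroblast genes 8 were called higher, and their sum ran from 535 to 804 FPKM in control and from 3375 to 4025 FPKM in ANG II libraries. The count was 7 under median-of-ratios scaling and 6 after quantile normalization. The largest of these differences was in Postn (periostin), at 4.30, followed by Col1a1 at 3.25 and Col1a2 at 3.13, while Dcn (decorin), the most abundant in control, differed by 0.74. All 12 macrophage genes were called higher on the values as deposited, and their sum ran from 304 to 385 FPKM in control and from 714 to 999 FPKM after ANG II. The count was 11 under either scaling, without Cd14, which was highest in ANG II 4 at 52.2 FPKM. Lgals3 (galectin-3) differed by 2.95, Ccr2 (a chemokine receptor of recruited monocytes) by 2.01 and Cd68 by 1.71, while Lyz2, the most abundant, differed by 1.04. Of 8 endothelial genes 2 were called higher, Vwf by 0.56 and Pecam1 by 0.52, while Cdh5, the most abundant, differed by 0.24, but neither Vwf nor Pecam1 was called under median-of-ratios scaling or quantile normalization. The sum of the 8 ran from 419 to 470 FPKM in control and from 479 to 559 FPKM after ANG II. The part of these cells in the S100 differences was not tested.

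**Figure D2:**
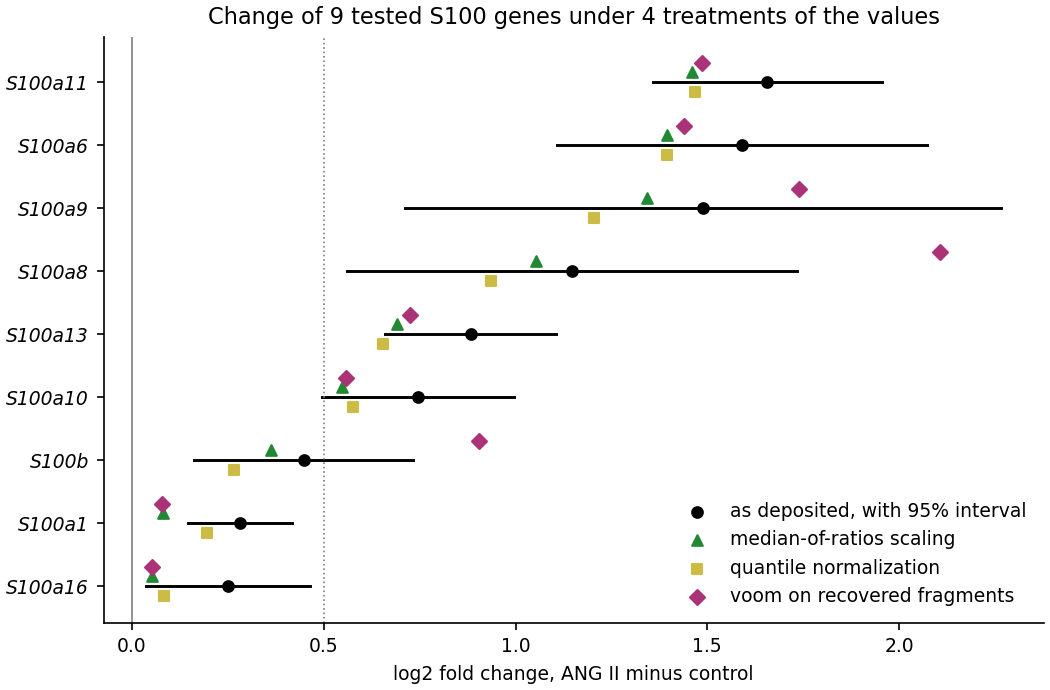
Log2 difference (ANG II minus control) of the 9 tested S100 genes on the values as deposited, with the 95% interval as a line, and after 3 other treatments of the values; the dotted line marks 0.5. S100a11 lies at 1.66 as deposited, and S100a1 and S100a16 move to 0.08 and 0.05 under median-of-ratios scaling.

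The calprotectin genes were rare in these ventricles. S100a8, at chr3:90668978-90670035, measured 0.703, 0.278, 0.123 and 0.664 FPKM in control and 1.61, 4.46, 2.02 and 1.27 FPKM in ANG II libraries. These values rest on 5, 2, 1 and 5 fragments in control and on 12, 35, 15 and 10 fragments after ANG II. The groups did not overlap, and ANG II 2 held the most. The log2 difference was 1.15 (SE 0.262, adjusted p 0.0078 by limma). It was 2.19 with a pseudocount of 0.1 and 2.11 in a voom fit on the recovered fragments, since a pseudocount of 1 FPKM compresses differences at this level.

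S100a9, at chr3:90692632-90695721 on the minus strand, measured 2.95, 1.06, 1.17 and 1.77 FPKM in control and 2.56, 10.3, 8.84 and 6.67 FPKM in ANG II libraries, from 22, 8, 10 and 14 and from 20, 85, 69 and 55 fragments. ANG II 1 lay below control 1, so the groups overlapped, while the other three ANG II libraries lay above all controls. The log2 difference was 1.49 (SE 0.347, adjusted p 0.00859 by limma), and 1.84 without ANG II 1. An exact two-sided permutation test of the log2 values gave p = 0.0571 (smallest possible p 0.0286 with 4 against 4), without adjustment.

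Genes of blood cells differed between the same groups. Of 12 neutrophil genes 7 were tested and 3 called higher, against 14.0 percent of all tested genes. The 3 were Lcn2 (1.53), Csf3r (1.17) and Retnlg (0.92). The sum of the 12 ran from 3.81 to 6.30 FPKM in control and from 13.2 to 17.6 FPKM after ANG II, with no overlap. Cxcr2, a chemokine receptor of mature neutrophils, had means of 0.0550 and 0.413 FPKM with separate groups, and was called with a pseudocount of 0.1 (1.70) though not with 1 (0.41). Ly6g, a surface marker of mature neutrophils, had means of 0.0268 and 0.0245 FPKM. These rest on 1 fragment in control 2 and 1 in ANG II 4, too few to compare. Mmp9, also on the list, was not called, with overlapping groups at means of 1.09 and 1.17 FPKM. Elane and Mpo, whose messenger RNAs belong mainly to marrow precursors, were at or near 0. All 5 erythroid genes were called higher, Hbb-bt by 2.72, Hbb-bs by 2.70 and Alas2 by 2.63. Their sums were 487, 96.8, 112 and 162 FPKM in control and 975, 2083, 1330 and 581 FPKM in ANG II libraries. Control 1 was the highest control for the erythroid sum, S100a8 and S100a9, and ANG II 2 was the highest of all libraries for the same 3 values. Within the ANG II group S100a8 had the same order of libraries as the erythroid sum, and within the control group S100a9 had. The order differed for S100a9 in the ANG II group, where ANG II 1 was lowest, and for S100a8 in the control group, where control 3 was lowest. Without ANG II 2 the S100a8 difference was 0.88 and was still called. The part of blood left in the tissue in the S100a8 and S100a9 values was not tested.

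**Figure D3:**
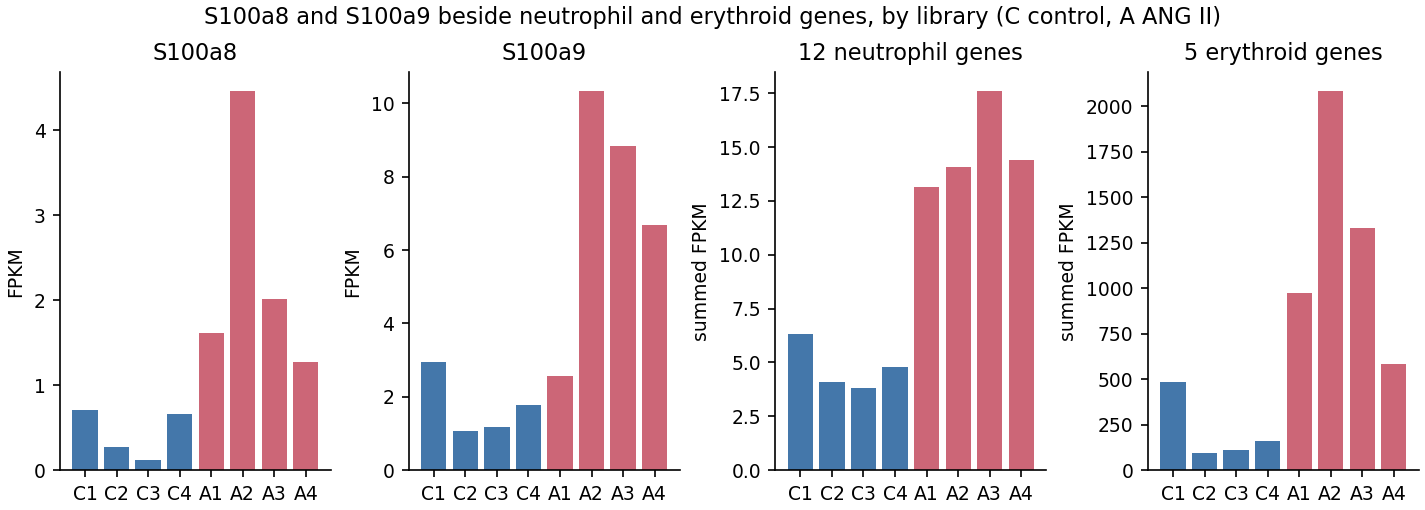
S100a8, S100a9, the summed level of 12 neutrophil genes and that of 5 erythroid genes, in FPKM, with 1 bar per library (C1 to C4 control, A1 to A4 ANG II) and axes from 0. ANG II 2 has the tallest bar for S100a8 (4.46), S100a9 (10.3) and the erythroid sum (2083), and ANG II 3 for the neutrophil sum (17.6).

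S100a1, at chr3:90511034-90514392 on the minus strand, encodes the calcium sensor that acts on the ryanodine receptor, the sarcoplasmic reticulum calcium pump and titin in heart muscle. It measured 491, 443, 435 and 458 FPKM in control and 549, 512, 579 and 583 FPKM in ANG II libraries, at percentile 99.3 of control levels. The groups were separate, with means of 457 ± 24.8 and 556 ± 32.7 FPKM (SD, n = 4 each). The log2 difference of 0.28 (95% interval 0.15 to 0.42, adjusted p 0.00561 by limma) passed the p limit but not the limit on size. It was 0.08 with median-of-ratios scaling (adjusted p 0.356 by limma) and 0.19 after quantile normalization (adjusted p 0.0577 by limma), so a change of S100a1 relative to the median gene was not shown. Of the 8 cardiomyocyte genes Tnni3 and Myh6 were called lower, by -0.58 and -0.55, on the values as deposited, against 1.41 percent of all tested genes. Myl2, the most abundant, differed by -0.48, and Ryr2 by 0.05. Under median-of-ratios scaling 5 of the 8 were called lower, and the share of all tested genes called lower there was not counted. After quantile normalization 1 was called lower, Pln, and Tnni3 (-0.37), Myh6 (-0.10) and Myl2 (-0.10) were not called. Tnnt2 (0.16), Actc1 (0.13), Myl3 (0.10) and Ryr2 (-0.05) were not called there either.

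S100a16, at chr3:90537254-90543151, is a broadly expressed member of the family. It measured 49.5, 51.8, 41.1 and 42.5 FPKM in control and 56.1, 52.0, 63.2 and 49.3 FPKM after ANG II. The groups overlapped. The log2 difference of 0.25 (95% interval 0.04 to 0.46) had an adjusted p of 0.0699 by limma, and one of 0.05 remained under median-of-ratios scaling.

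S100b, at chr10:76253853-76261159, is best known from glia and adipocytes and is also induced in stressed cardiomyocytes. It measured 0.792, 0.461, 0.244 and 0.661 FPKM in control and 1.16, 1.18, 0.936 and 1.05 FPKM after ANG II, on 17, 10, 6 and 15 and on 26, 28, 21 and 25 fragments. The ranges were separate, with the lowest value in control 3. The log2 difference of 0.45 (SE 0.128, adjusted p 0.0223 by limma) fell short of 0.5, and it was 0.97 (adjusted p 0.0346 by limma) with a pseudocount of 0.1, which called it. It was 0.36 under median-of-ratios scaling (adjusted p 0.0638 by limma) and 0.27 after quantile normalization (adjusted p 0.165 by limma), where the adjusted p no longer passed. Of 8 Schwann cell genes 2 were called higher, against 14.0 percent of all tested genes. They were Ncam1 (1.06) and Mbp (0.74, not called after quantile normalization at 0.43). Cdh19, the most abundant in control, differed by 0.25 (not called). The sum of the 8 ran from 6.62 to 11.5 FPKM in control and from 12.8 to 14.4 FPKM after ANG II. Of 5 tested adipocyte genes 0 were called by limma and 0 had an unadjusted p under 0.05, and 0 were called under median-of-ratios scaling. Cfd, the most abundant of the 6 listed, differed by 0.61, and the sums of the 6 overlapped at 0.673 to 7.30 and 0.898 to 13.7 FPKM. The part of these cells in the S100b level was not tested.

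S100a4, also called fibroblast-specific protein 1, lies at chr3:90603771-90606045. It was listed at 0.166 FPKM in control 1, from 1 fragment, and at 0 in the other 7 libraries, where 3 fragments would have given between 0.434 and 0.493 FPKM. On the same strand, the annotated gene Gm42674 at chr3:90601904-90605885 covers 51.7 percent of the exon length of S100a4 (GENCODE M21), and 47.4 percent of the 50-base words of S100a4 transcripts also occur in other genes. Gm42674 and the adjacent S100a3 were both listed at 0 in all libraries. Among protein-coding genes of the table with at least 50 percent of their exon length covered on the same strand by another gene, 245 of 421 (58.2 percent) were listed at 0 in every library. Among those with no such overlap the count was 4377 of 20139 (21.7 percent), and with a smaller overlap 166 of 1337 (12.4 percent). The part of the overlap in the S100a4 value was not tested, and the value is no measure of whether S100a4 was expressed.

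The S100 messenger RNA pool was examined next, since shares within a library do not depend on library scaling. S100a4 entered the sum at its listed value, so the pool is that of the other S100 genes. The summed level was 617 ± 40.2 FPKM in control and 889 ± 51.9 FPKM after ANG II (SD, n = 4 each). S100a1 made up 73.9, 71.4, 76.9 and 74.4 percent of the sum in control and 61.5, 61.2, 60.3 and 67.4 percent in ANG II libraries. Every ANG II library lay below every control, with a mean difference of -11.6 percentage points. The share of S100a11 went from a mean of 4.91 to 11.04 percent, that of S100a6 from 3.46 to 7.41 percent and that of S100a13 from 2.38 to 3.14 percent, all without overlap. The share of S100a16 went from 7.49 to 6.19 percent, also without overlap, while the shares of S100a10 overlapped at means of 7.18 and 8.44 percent. Without S100a1 the sum was 160 ± 21.2 FPKM in control and 333 ± 40.8 FPKM after ANG II (SD, n = 4 each).

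**Figure D4:**
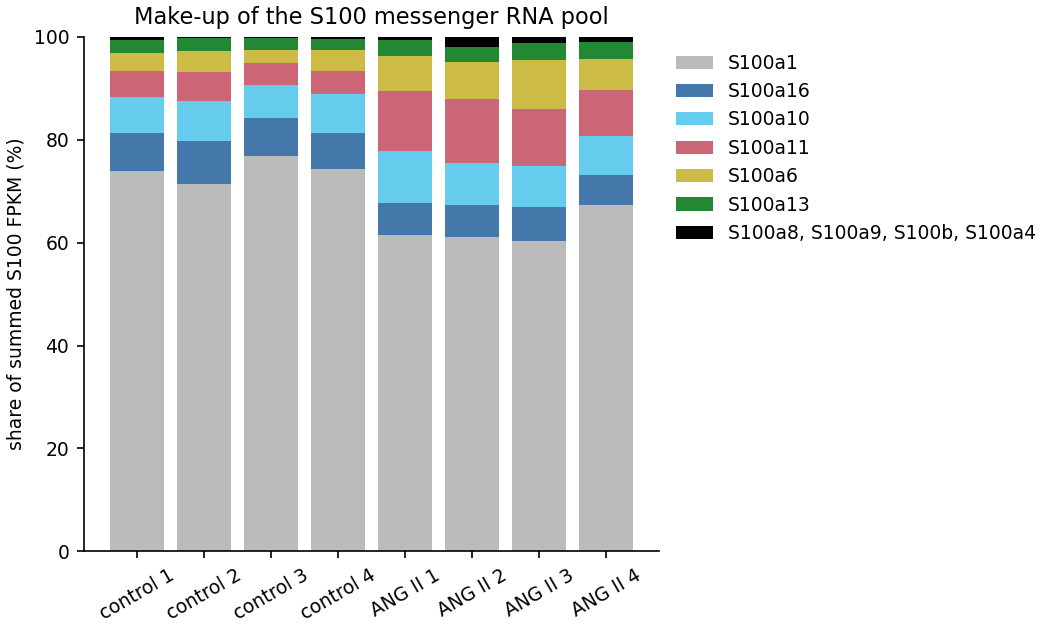
Share of each S100 gene in the summed S100 FPKM of a library (percent, stacked from 0 to 100), for 4 control and 4 ANG II libraries. The S100a1 segment spans 71.4 to 76.9 percent in control and 60.3 to 67.4 percent after ANG II, and the S100a11 and S100a6 segments are wider in every ANG II library.

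Ratios within a library were taken for 5 pairs of an S100 gene and a dimer partner, binding partner or neighbour, each with an exact two-sided permutation test on log2 ratios over 70 allocations. S100a1 and S100a13, the divergent neighbours whose intervening sequence is printed above, were the first pair. The ratio of S100a1 to S100a13 was 29.3, 27.9, 32.2 and 36.1 in control and 20.1, 21.01, 18.8 and 19.9 after ANG II. The groups were separate, with a log2 difference of -0.65 (exact permutation p = 0.0286, the smallest possible, and 0.0714 adjusted over the 5 pairs). The ratio of S100a10 to Anxa2, its annexin partner, was 0.637, 0.779, 0.649 and 0.749 in control and 0.517, 0.438, 0.460 and 0.534 after ANG II. These groups were separate too, with a log2 difference of -0.53 (exact permutation p = 0.0286, and 0.0714 adjusted). Neither passed 0.05 after adjustment.

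The 3 other ratios overlapped between groups. S100a8 to S100a9, the calprotectin subunits, had means of 0.245 ± 0.111 and 0.370 ± 0.203 (SD, n = 4 each, exact permutation p = 0.371). S100a11 to Anxa1 had means of 1.17 ± 0.172 and 1.27 ± 0.0928 (SD, n = 4 each, exact permutation p = 0.4). S100a1 to Ryr2, the cardiac ryanodine receptor, had means of 1.17 ± 0.206 and 1.38 ± 0.241 (SD, n = 4 each, exact permutation p = 0.314). The adjusted value was 0.4 for each of the 3, which does not show that the ratios are alike.

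**Figure D5:**
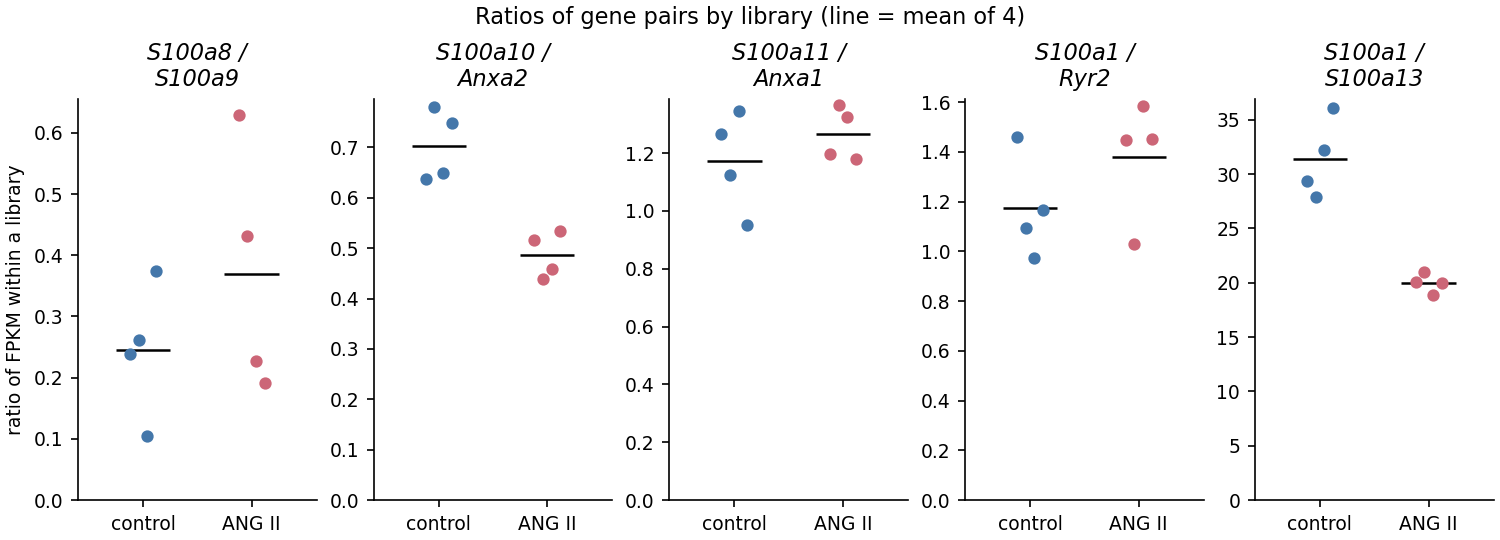
Ratio of FPKM values within each library for 5 gene pairs, 1 point per library and a line at the mean of 4, with axes from 0. The groups are separate for S100a10 to Anxa2 (0.637 to 0.779 against 0.438 to 0.534) and for S100a1 to S100a13 (27.9 to 36.1 against 18.8 to 21.01) and overlap for the other 3 pairs.

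Known partners and receptors of S100 proteins formed a list of 38 genes, of which 32 were tested, 9 were called higher and 1 lower, against 14.0 and 1.41 percent of all tested genes. The list held genes that went both ways, and its median difference was 0.15. Of 5 annexin partners, Anxa1 was higher by 1.53 (26.4 to 77.3 FPKM) and Anxa2 by 1.27 (63.1 to 155 FPKM), while Ahnak, the scaffold bound by the S100A10 and annexin A2 complex and the most abundant of the 5 in control, differed by 0.34. Of 10 cytosolic and cytoskeletal partners 4 were higher, led by Iqgap1 (1.10), Tpm3 (0.88) and Myh10 (0.85). The nonmuscle myosin Myh9, the most abundant in control, was also higher, by 0.75. Of 6 receptors, Emb (1.11) and Alcam (0.90) were called higher. Ager, the RAGE gene, and Tlr4 were not called, nor was Bsg, the most abundant. Of 6 muscle partners none was higher and Pygm, muscle glycogen phosphorylase, was lower by -0.53. Atp2a2, the calcium pump and the most abundant, differed by -0.49, just short of the limit. Of 3 export partners only Fgf1 was tested and differed by -0.29. Of 8 genes listed for S100A10 at the cell surface (membrane proteins it helps to traffic, with plasminogen and its secreted activator), 4 were tested. Plat, the secreted activator, was higher by 0.81. The channel genes Kcnk3, the most abundant, and Scn10a differed by -0.39 and -0.47, neither past the limit on size, and both were called lower after quantile normalization (at -0.56 and -0.59) and when scaled by median of ratios (at -0.59 and -0.51). Scn10a was a low gene, with means of 0.551 and 0.121 FPKM and no overlap between groups, and with a pseudocount of 0.1 it was lower by -1.62. The other channel gene tested, Asic1, differed by -0.04 (adjusted p 0.806 by limma) and was called under neither scaling. Under median-of-ratios scaling 9 partners were higher, against 9.07 percent of all tested genes, and after quantile normalization 9, against 7.3 percent. Called lower were 5 and 4. The share of all tested genes called lower under these scalings was not counted, so the lower counts are not a result about the partners.

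Apart from the pseudogene S100a11-ps, listed at 0 in all libraries, the remaining S100 genes of the table numbered 7, and 1 of them had enough reads to test. S100a7a, at chr3:90654017-90658669, had a mean of 0.920 FPKM in control and 1.03 FPKM after ANG II, a log2 difference of 0.07 (adjusted p 0.851 by limma). It lies on chromosome 3 between S100a6 and S100a8, both of which were higher after ANG II. The other six (S100a2, S100a3, S100a5, S100a14, S100g and S100z) had between 0 and 3 fragments in every library.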

How the data were processed

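Left ventricular RNA of 4 control and 4 ANG II mice was sequenced as paired-end libraries. The authors deposited FPKM values per gene. The submitters' processing notes name HISAT, Bowtie2 and RSEM, and the genome build, annotation and use of strand are not given in the sources used here. Of 55679 genes 27083 were at 0 in all libraries, and 55141 identifiers matched GENCODE M21 (GRCm38), which gave positions. The 19364 genes whose average over the 8 libraries reached 0.1 FPKM were fitted on log2(FPKM + 1) with limma 3.58.1 (R 4.3.3, variance trend, Benjamini-Hochberg adjustment). Fold changes on this scale understate changes of low genes. Low FPKM values multiplied by mean GENCODE transcript length were whole multiples of 1 fragment: within 0.05 of a fragment, below 60 fragments, at least 97.6 percent of values of multi-exon genes and 99.2 percent of those of single-exon genes. From this step, fragments and library depth were recovered, and counts near 0 carry counting error at least as large as their square root. Ratios and single values were tested with exact permutation tests.

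The S100 genes, partner and marker lists were chosen with earlier results of these data known. Genes named in the text were all 10 S100 genes, the genes of the ratios, up to 3 called genes with the largest differences and the most abundant gene of each list, and other S100 genes that were tested. Beyond these, Mpo, Elane, Ly6g, Cxcr2, Mmp9, Ager, Tlr4, Cd14, Pln, Scn10a and Asic1 were named after their values were seen. So were Tnnt2, Actc1, Myl3, Gm42674, Gm12854, Gm7665 and the other S100 genes. The class limit of 50 percent exon overlap was also set then. A ratio of S100a4 to S100a6 was planned but is not given, because S100a4 was listed at 0. Alternatives were a pseudocount of 0.1, other filters and scalings, no variance trend, other call limits, a replicate block and leaving out each library. A voom fit on recovered fragments (scaled by median of ratios) was added after the data were seen. Upstream sequences came from RefSeq for 9 of the 10 genes. The extraction text of the labels names another cell source, and cardiomyocyte genes were used to check the tissue.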

Additional observations from a re-analysis of the deposited data

Results flagged for a closer look

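In 3 of 32 groups of 4 values examined, 1 library stood apart from the other three by more than Dixon's 95% limit, which chance passes in about 1 in 20 groups. S100a4 was listed at 0.166 FPKM in control 1, from 1 fragment, and at 0 in the other controls. With the other values at 0 any fragment passes the limit, so the rate of 1 in 20 does not apply to S100a4. S100a11 was 76.1 FPKM in ANG II 4, while the other ANG II libraries lay between 105 and 106 FPKM, and its value there was still above every control. S100a1 made up 67.4 percent of the summed S100 level in ANG II 4 and 60.3 to 61.5 percent in the other ANG II libraries. A share depends on every gene in the sum, so this flag is not independent of that of S100a11 in the same library. The count of 3 can therefore not be set against the rate of 1 in 20.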

How the results depend on the processing

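S100a6, S100a8, S100a9, S100a10, S100a11 and S100a13 were called higher under all 17 alternatives that kept the limits of a call. By adjusted p alone 8 S100 genes were called, S100a1 and S100b among them, against 28.4 percent of all tested genes, and 4 lay above a log2 difference of 1, against 3.96 percent. Called higher over all genes were 9.07 percent under median-of-ratios scaling, 7.3 percent after quantile normalization and 12.1 percent with voom (chosen after seeing the data). S100a1 and S100a16 were called under none of the 17. S100b was called under 2 of 16 alternatives, at 0.53 without control 1 and 0.97 with a pseudocount of 0.1, and its adjusted p (limma) missed 0.05 under both scalings, with the total taken without mitochondrial and top 10 genes (0.0535), with voom (0.0646) and without control 2 (0.0520), control 3 (0.0566), ANG II 1 (0.0565) or ANG II 2 (0.0541). The same-numbered libraries did not deviate together (correlations of -0.02, 0.06, -0.03 and -0.01). These values showed no sign of pairing by number, but could not exclude a weak one. With the replicate block 6 S100 genes and 13.9 percent of all tested genes were called higher. For the ratios S100a1 to S100a13 (-0.65) and S100a10 to Anxa2 (-0.53) the replicate block gave p = 0.125 by exact permutation within numbers, the smallest it allows. Leaving out 1 library moved these ratios between -0.70 and -0.58 and between -0.58 and -0.48, and the S100a1 share difference between -13.2 and -10.6 points. S100a8 rests on 1 to 5 fragments in each control library.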
